A study of Mus musculus with 6 samples.

Results

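The nuclear genes of the mitochondrial respiratory chain were compared between 2 mouse hypothalamic cell lines. They were chosen by symbol: all probe sets that the platform annotation names for 1 gene alone and whose symbol begins with Nduf, Uqcr, Atp5 or Cox4 to Cox8, or is Sdha, Sdhb, Sdhc, Sdhd, Cyc1 or Cycs. That gave 160 of the 22690 probe sets on the array, which stand for 86 of the 12393 genes tested. Of these 86 genes, 80 encode subunits or cytochrome c and 6 begin in the same way but encode assembly or supercomplex factors (Ndufaf1, Ndufaf3, Ndufaf4, Ndufaf5, Ndufaf7 and Cox7a2l). A further 8 probe sets carry such a symbol together with that of another gene and were not used here. A_212 is the line derived from adult hypothalamus and N_46 the line derived from embryonic hypothalamus. Both lines are labelled as expressing neuropeptide Y, and both carry the SV40 T-antigen, a tumour virus protein that disables p53 and RB and was overexpressed to immortalise them. Plates reached 70% confluence in DMEM with 5% serum, and RNA from 3 plates of each line went to 1 Affymetrix array per plate. Each age of origin is represented by 1 line, so age and line cannot be told apart. The plates are not said to be separate experiments, and p-values therefore measure only plate-to-plate spread, which may be technical.

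The respiratory chain passes electrons from NADH through complex I, and from succinate through complex II, to coenzyme Q, complex III, cytochrome c and complex IV, which reduces oxygen to water. Complexes I, III and IV pump protons out of the mitochondrial matrix, and complex V, the ATP synthase, lets them flow back and makes ATP. Most subunits are encoded in the nucleus, whereas a few core subunits of complexes I, III, IV and V are encoded by mitochondrial DNA. Neurons draw most of their ATP from this chain, and some subunits of complex IV exist as tissue-specific isoforms.

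The deposited values are log2 values centred on each probe set's median over the 6 arrays, so they carry differences between arrays and no expression level. Whether a gene was expressed at all, and how strongly relative to another gene, cannot be read from them, and the labelled cell type cannot be checked by marker levels. A log base of 2 was taken because RMA gives it, and every fold below rests on it. A gene's value is the mean of its probe sets. Differences are A_212 minus N_46, so that a positive difference is higher in A_212, with the standard error (SE) of a limma fit over 3 arrays per line. "Called" means a limma p under 0.05 after Benjamini-Hochberg adjustment over all 12393 genes. In bulk RNA, fewer cells of a type and less RNA per cell cannot be told apart.

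Respiratory chain genes differed between the lines in both directions. Of 86 genes, 31 (36.0%) were called, against 39.2% of all genes tested. Of these, 15 were higher in A_212, where 18.3% of all genes were, and 16 were lower, where 20.9% of all genes were. A share this near to that of the whole array is not a result about the respiratory chain. For 45 of the 86 genes (52.3%), no A_212 array overlapped the range of N_46, against 51.1% of all genes. The median difference over the 86 genes was -0.04, beside -0.06 over all genes tested. Differences were small in size, with 77 of 86 under 0.5 on the log2 scale and a median absolute difference of 0.14, beside 0.17 over all genes. Only Cox6b2 and Uqcr10 were called with a difference of at least 1 (2-fold), a bound that 5.83% of all genes passed. On single probe sets, 56 of 160 were called, against 37.4% of all probe sets of 1 gene. Of these, 25 were higher in A_212 (17.8% of all probe sets) and 31 were lower (19.6%).

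**Figure D1:**
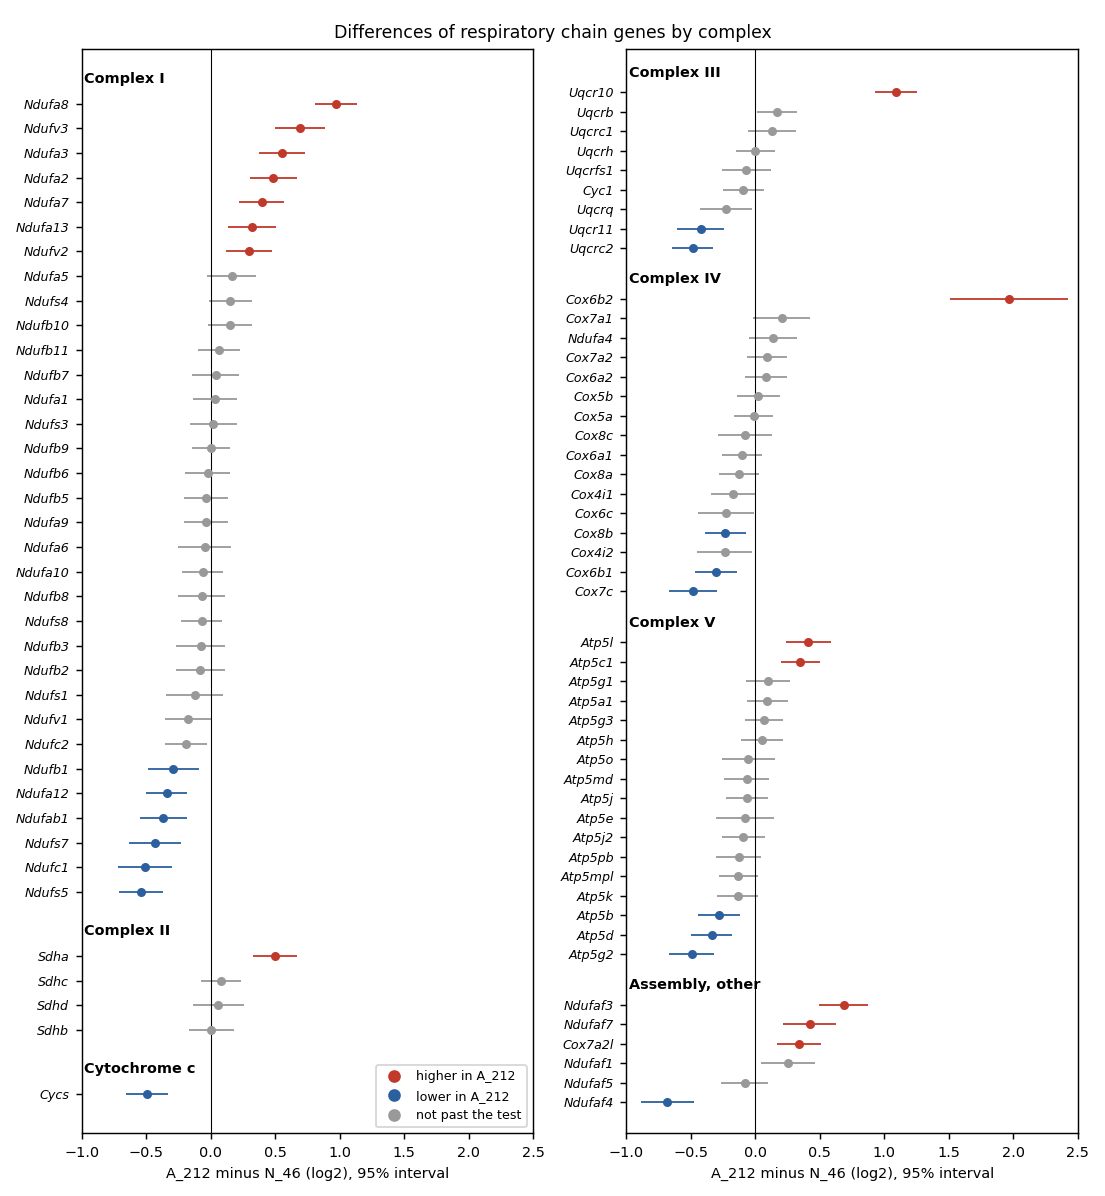
Differences of the 86 genes between the lines, A_212 minus N_46 on a log2 axis, grouped by complex, with 95% intervals of the limma fit. Red points were called higher in A_212, blue points lower and grey points did not pass; complexes I, III, IV and V hold calls in both directions, and Cox6b2 lies farthest from 0 at 1.96.

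Promoter windows, from 250 bases before to 50 after a transcription start, were taken from RefSeq on build GRCm38.p6 and were found for 71 of the 86 genes (76 windows). The letters of the core site of NRF1, GCGCATGC, of an ETS site, CCGGAAGT, and of a YY1 site, AAGATGGCG, were searched on both strands. The first was in 12 of the 76 windows (15.8%), against 2.71% of all 32851 windows and 4.29% of the 12560 windows of genes named on the array. The ETS letters were in 5 (6.58%), against 3.89% and 6.31%, and the YY1 letters in 6 (7.89%), against 1.40% and 2.31%. By call, the NRF1 letters were in 2 of 16 windows of genes higher in A_212, 4 of 16 of genes lower and 6 of 44 of genes that did not pass. A match is a description of the letters and not a binding site. Shown here are the window of Cox6b2, the gene with the largest difference, which holds none of the 3, and the windows with a match among the 3 genes called with the largest difference in each direction (Ndufa8, higher in A_212, and Ndufaf4 and Ndufc1, lower). The windows of Uqcr10 and Ndufs5, the others among those 6, hold none. Capitals mark the NRF1 letters in Ndufa8 and Ndufaf4 and the YY1 letters in Ndufc1, and in Ndufaf4 the first capital run holds 2 overlapping matches.
Cox6b2, chr7:4753045-4753344, minus strand: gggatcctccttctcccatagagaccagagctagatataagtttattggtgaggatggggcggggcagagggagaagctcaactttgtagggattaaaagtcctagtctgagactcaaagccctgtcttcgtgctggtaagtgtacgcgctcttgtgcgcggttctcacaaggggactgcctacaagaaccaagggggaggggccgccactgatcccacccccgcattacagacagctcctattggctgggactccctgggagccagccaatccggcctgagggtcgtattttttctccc
Ndufa8, chr2:36049289-36049588, minus strand: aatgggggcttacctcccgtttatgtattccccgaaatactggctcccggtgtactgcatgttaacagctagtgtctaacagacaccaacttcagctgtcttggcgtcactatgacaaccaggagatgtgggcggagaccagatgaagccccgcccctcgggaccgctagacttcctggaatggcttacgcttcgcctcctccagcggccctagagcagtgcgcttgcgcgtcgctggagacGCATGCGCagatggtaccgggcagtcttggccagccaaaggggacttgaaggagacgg
Ndufaf4, chr4:24897833-24898132, plus strand: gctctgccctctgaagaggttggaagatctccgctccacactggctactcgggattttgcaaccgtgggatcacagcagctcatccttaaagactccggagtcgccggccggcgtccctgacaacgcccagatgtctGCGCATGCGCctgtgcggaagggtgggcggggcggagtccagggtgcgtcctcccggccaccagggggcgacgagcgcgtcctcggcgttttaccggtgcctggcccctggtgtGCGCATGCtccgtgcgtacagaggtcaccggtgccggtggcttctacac
Ndufc1, chr3:51408906-51409205, minus strand: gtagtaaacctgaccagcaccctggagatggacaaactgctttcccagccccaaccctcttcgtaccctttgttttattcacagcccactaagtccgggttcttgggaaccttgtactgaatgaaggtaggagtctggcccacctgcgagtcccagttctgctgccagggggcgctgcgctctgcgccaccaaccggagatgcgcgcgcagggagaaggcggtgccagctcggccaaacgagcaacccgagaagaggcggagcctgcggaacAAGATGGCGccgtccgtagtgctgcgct
The NRF1 letters begin at base -8 from the start in Ndufa8 and at bases -113, -111 and 2 in Ndufaf4, and the YY1 letters at base 23 in Ndufc1. No relation between the letters and the differences was tested.

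Complex I, the NADH dehydrogenase, held the most genes. Of 33 measured, 7 were higher in A_212, 6 were lower and 20 did not pass (39.4% called, against 39.2% of all genes). The median difference was -0.04. Leaving out 1 array moved this median between -0.07 (without A_212 replicate 2) and 0.01 (without A_212 replicate 3), so its sign rests on single arrays. The arm that reaches into the matrix carries the flavin and iron-sulfur clusters. Of its 14 genes measured, 4 were higher and 2 lower (42.9% called). Of 18 genes of the arm in the membrane, 3 were higher and 3 lower (33.3% called). Both shares are near the 39.2% of all genes. Ndufab1, the acyl carrier protein that sits in both arms, was lower. The largest difference was that of Ndufa8, an accessory subunit of the membrane arm that faces the intermembrane space. Its values were 0.44, 0.58 and 0.44 in A_212 and -0.53, -0.47 and -0.44 in N_46. The lines were far apart, and the mean difference was 0.97 ± 0.07 (SE, n = 3 arrays in each line; limma adjusted p = 2.6e-06), or 1.96-fold. Ndufv3, an accessory subunit at the tip of the matrix arm, was at 0.26, 0.58 and 0.37 in A_212, against -0.29, -0.31 and -0.26 in N_46. All A_212 arrays were above all N_46 arrays, by 0.69 ± 0.09 in the mean, with A_212 replicate 2 the highest. Ndufa3, a small membrane subunit, followed at 0.55 ± 0.08, with both of its probe sets called (0.57 and 0.53). The other 4 genes higher in A_212 were Ndufa2 (0.48), Ndufa7 (0.39), Ndufa13 (0.32) and Ndufv2 (0.30), the last a core subunit that holds an iron-sulfur cluster. All 5 probe sets of Ndufa7 were called, at 0.27 to 0.49.

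In the other direction, Ndufs5, an accessory subunit of the membrane arm, was at -0.33, -0.20 and -0.41 in A_212, against 0.27, 0.21 and 0.20 in N_46. The lines did not overlap, and the difference was -0.54 ± 0.08 (limma adjusted p = 2.5e-04). Ndufc1, another small membrane subunit, was at -0.40, -0.11 and -0.38 in A_212 and 0.34, 0.14 and 0.17 in N_46, a difference of -0.51 ± 0.09. A_212 replicate 2 came nearest to N_46 for both genes. Ndufs7, a core subunit with the last iron-sulfur cluster before coenzyme Q, differed by -0.44 ± 0.09. Ndufab1 (-0.37), Ndufa12 (-0.34) and Ndufb1 (-0.29) were the remaining genes lower in A_212. The 4 probe sets of Ndufa12 lay close together, at -0.35 to -0.34. Ndufb1 lost its call without A_212 replicate 1 or 3 and without N_46 replicate 1 or 3. Of the core subunits at the electron entry site, Ndufv2 was higher, as given above, and the other two did not pass. Ndufv1, which binds NADH and the flavin, differed by -0.17 ± 0.08 (limma adjusted p = 0.12) and Ndufs1 by -0.12 ± 0.10 (adjusted p = 0.35). Without A_212 replicate 2, Ndufv1 was called at -0.25 (adjusted p = 0.035).

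**Figure D2:**
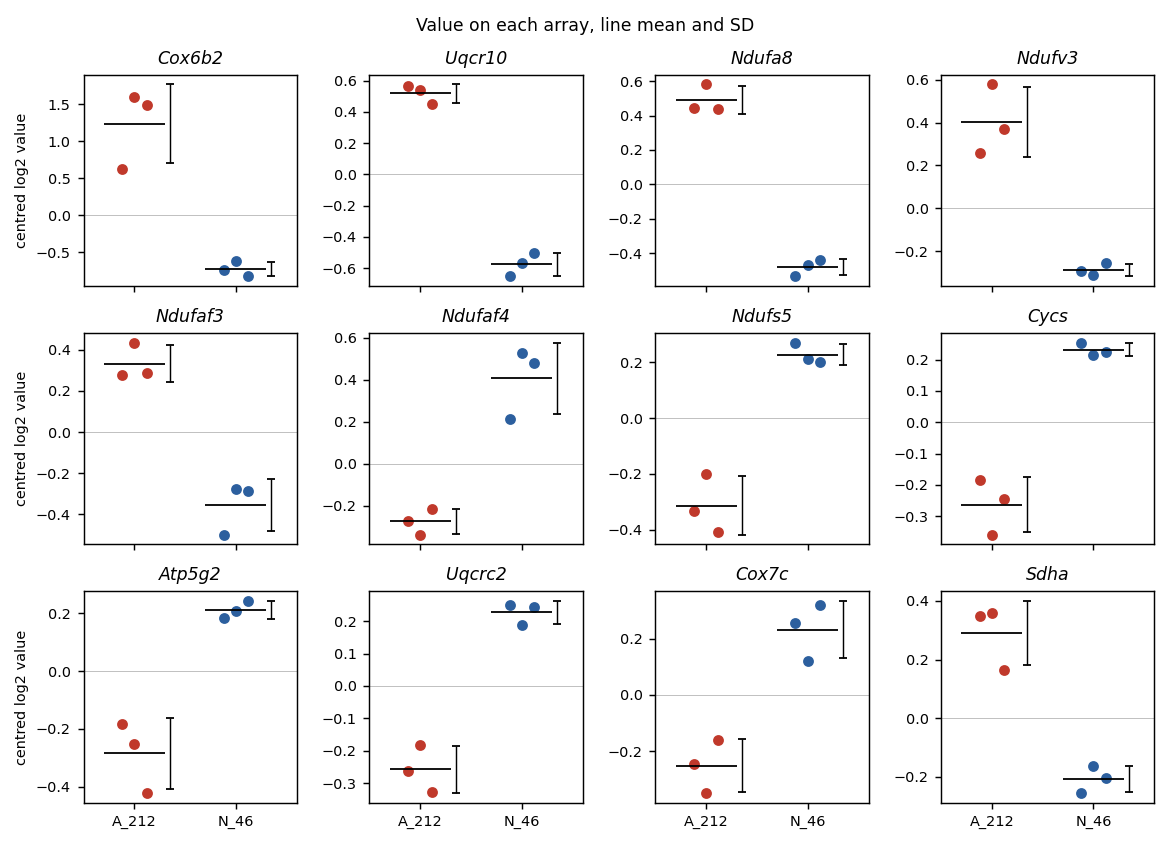
Centred log2 value of 12 genes on each of the 6 arrays, A_212 left and N_46 right, with the mean (horizontal line) and SD (bar at the side, n = 3 arrays) of each line. The vertical scale differs between panels. All 12 genes were called, and their lines do not overlap, as for all 31 called genes and 51.1% of all genes tested. For Cox6b2, A_212 replicate 1, at 0.62, lies well below the other A_212 arrays.

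Complex II, the succinate dehydrogenase of the citric acid cycle, is encoded entirely in the nucleus. Of its 4 genes, the flavoprotein gene Sdha was higher in A_212 and the other 3 did not pass (25% called, against 39.2% of all genes). Sdha was at 0.35, 0.36 and 0.16 in A_212, against -0.26, -0.16 and -0.20 in N_46, with no overlap. The difference was 0.50 ± 0.08 (SE, limma adjusted p = 4.9e-04), and both of its probe sets were called (0.53 and 0.47). The iron-sulfur subunit gene Sdhb differed by 0.0041 ± 0.08, with a 95% interval from -0.17 to 0.18. The membrane anchor genes Sdhc and Sdhd differed by 0.08 (interval -0.08 to 0.23) and 0.06 (interval -0.14 to 0.26). A difference between these anchors and Sdha was not tested.

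Complex III, the cytochrome bc1 complex, had 9 genes measured. Uqcr10 was higher in A_212, Uqcrc2 and Uqcr11 were lower and 6 did not pass (33.3% called, against 39.2% of all genes). Uqcr10, a small subunit next to cytochrome c1, was at 0.56, 0.54 and 0.45 in A_212 and -0.65, -0.57 and -0.50 in N_46. The difference of the gene mean was 1.09 ± 0.07 (limma adjusted p = 1.1e-06), but its 3 probe sets were far apart. The plain probe set differed by 2.42 and one of a type that may cross-hybridise by 0.87, whereas the third, of a type shared by transcripts of a gene, differed by -0.0096 (limma adjusted p = 0.94). Which of these reads the transcript of the gene was not tested. Uqcrc2, a core protein of the matrix side, was at -0.26, -0.18 and -0.33 in A_212, against 0.25, 0.19 and 0.24 in N_46. Its difference was -0.49 ± 0.07, and its probe sets lay at -0.49 and -0.48. Uqcr11 differed by -0.43 ± 0.08. The catalytic subunits did not pass: the Rieske iron-sulfur protein gene Uqcrfs1 differed by -0.07 (95% interval -0.26 to 0.12) and the cytochrome c1 gene Cyc1 by -0.09 (interval -0.25 to 0.06).

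Cycs encodes cytochrome c, the small protein that carries electrons from complex III to complex IV and that triggers apoptosis when it leaves the mitochondrion. It was at -0.18, -0.36 and -0.25 in A_212 and at 0.25, 0.22 and 0.23 in N_46. All A_212 arrays were below all N_46 arrays, and the difference was -0.49 ± 0.07 (limma adjusted p = 3.4e-04), a 1.41-fold difference in favour of N_46. All 3 probe sets were called, at -0.55, -0.54 and -0.39.

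In complex IV, the cytochrome c oxidase, 1 of 16 genes was higher in A_212, 3 were lower and 12 did not pass. That is 25% called, against 39.2% of all genes, and the median difference was -0.09. The gene higher in A_212 was Cox6b2, known as the testis isoform of the subunit that faces cytochrome c. It was at 0.62, 1.59 and 1.496 in A_212, against -0.74, -0.62 and -0.81 in N_46. The lines did not overlap, but A_212 replicate 1 was nearer to N_46 than the other plates of its line were. A_212 minus N_46 came to 1.96 ± 0.21 (limma adjusted p = 3.0e-05), a 3.90-fold difference, and it rests on 1 probe set. Without A_212 replicate 1 it was 2.27. Cox6b1, the widely expressed paralog of the same subunit, went the other way at -0.30 ± 0.07 (adjusted p = 0.0076), with probe sets at -0.32 and -0.29. Within each array, Cox6b2 minus Cox6b1 was 0.86, 1.67 and 1.73 in A_212 and -0.83, -0.74 and -0.97 in N_46. This contrast differed between the lines by 2.27 (exact permutation test, two-sided p = 0.10, the smallest that 3 arrays against 3 can give). It shows unequal change of the paralogs and not how much of either was present.

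Cox7c, a small structural subunit, had the most negative difference in complex IV. Its values were -0.25, -0.35 and -0.16 in A_212 and 0.25, 0.12 and 0.32 in N_46. The difference was -0.48 ± 0.08 (limma adjusted p = 8.4e-04). Cox8b, the heart and skeletal muscle isoform, was called at -0.23 ± 0.07 (adjusted p = 0.026), and the call ended when any 1 array other than A_212 replicate 3 was left out (adjusted p from 0.053 to 0.091). The ubiquitous Cox8a was at -0.13 ± 0.07 and did not pass. The regulatory subunit isoforms Cox4i1 (-0.17, 95% interval -0.34 to 0.00048) and Cox4i2 (-0.24, interval -0.45 to -0.02) did not pass, with adjusted p-values of 0.11 and 0.076. Cox4i2 is the isoform linked to low oxygen, and it was called without A_212 replicate 3 (-0.32, limma adjusted p = 0.027). On all 6 arrays it was also called with weighted arrays and with replicate number as a block. The muscle isoforms Cox6a2 (0.08) and Cox7a1 (0.20) and their widely expressed paralogs Cox6a1 (-0.10) and Cox7a2 (0.09) did not pass. Without N_46 replicate 3, Cox7a1 was called at 0.31 (limma adjusted p = 0.031), and Cox6a2 lay between 0.05 without A_212 replicate 3 and 0.13 without A_212 replicate 1, not called in either. Of 6 paralog pairs contrasted within arrays, the lines did not overlap for Cox6b2 minus Cox6b1 and for Cox6a2 minus Cox6a1 (0.19, exact permutation p = 0.10). Among single genes, 51.1% of all those tested did not overlap, so a contrast without overlap is not in itself a result. The other 4, namely Cox4i2 minus Cox4i1, Cox7a1 minus Cox7a2, Cox8b minus Cox8a and Atp5g1 minus Atp5g3, overlapped, at differences from -0.11 to 0.11. Single arrays moved 3 of these 4: with 1 array left out, Cox4i2 minus Cox4i1 ran from -0.19 (without A_212 replicate 3) to 0.03 (without A_212 replicate 1), Cox7a1 minus Cox7a2 from 0.04 (without A_212 replicate 3) to 0.21 (without N_46 replicate 3), and Atp5g1 minus Atp5g3 from -0.01 (without A_212 replicate 2) to 0.09 (without A_212 replicate 3). Cox5a and Cox5b, which flank the catalytic core, differed by -0.01 (95% interval -0.16 to 0.14) and 0.02 (interval -0.14 to 0.19), and of the 6 probe sets of Cox5b 0 were called. Ndufa4, first assigned to complex I and now counted with complex IV, differed by 0.14 (interval -0.05 to 0.33).

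Complex V, the ATP synthase, had 17 genes measured, of which 2 were higher in A_212, 3 were lower and 12 did not pass. That is 29.4% called, against 39.2% of all genes, and the median difference was -0.07. Of the 5 genes of F1, the catalytic head in the matrix, 3 (60%) were called and not all in the same direction. The gene of the central stalk subunit gamma, Atp5c1, was higher at 0.35 ± 0.07 (limma adjusted p = 0.0023). Its 2 probe sets were at 0.52 and 0.18, and with the plain one alone the call was lost (0.18, adjusted p = 0.14). The delta subunit gene Atp5d was lower at -0.34 ± 0.07, and the catalytic beta subunit gene Atp5b was lower at -0.28 ± 0.07 (adjusted p = 0.010). Atp5b was at -0.10, -0.12 and -0.25 in A_212 and 0.11, 0.17 and 0.10 in N_46, and its call ended without N_46 replicate 2 (-0.26, adjusted p = 0.051). The alpha subunit gene Atp5a1, which alternates with beta in the head, differed by 0.09 (95% interval -0.07 to 0.25). Of the 12 genes of the membrane part and the outer stalk, 1 was higher and 1 lower (16.7% called). Atp5l, the gene of subunit g of the membrane part, was at 0.20, 0.28 and 0.11 in A_212, against -0.11, -0.24 and -0.27 in N_46. The lines did not overlap, with a difference of 0.41 ± 0.08.

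Subunit c, which forms the rotating ring, is made from 3 genes that encode the same mature protein. Atp5g2 was lower in A_212, at -0.18, -0.25 and -0.42, against 0.18, 0.21 and 0.24 in N_46. Its difference was -0.49 ± 0.08 (limma adjusted p = 6.0e-04). One probe set of Atp5g2 carried the call (-0.86), and the other differed by -0.13 (adjusted p = 0.21). Atp5g1 differed by 0.10 (95% interval -0.07 to 0.27) and Atp5g3 by 0.07 (interval -0.08 to 0.22), and neither passed.

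Of the 6 assembly and supercomplex factors, 3 were higher in A_212, 1 was lower and 2 did not pass (66.7% called, against 39.2% of all genes). Ndufaf3, which takes part in building the matrix arm of complex I, was at 0.28, 0.43 and 0.28 in A_212, against -0.50, -0.28 and -0.29 in N_46. Its difference was 0.69 ± 0.09 (limma adjusted p = 1.0e-04). Ndufaf4, which is known to bind Ndufaf3 in human cells, went the other way at -0.68 ± 0.09 (adjusted p = 1.8e-04). It was at -0.27, -0.34 and -0.21 in A_212 and 0.21, 0.53 and 0.48 in N_46, and both of its probe sets were called (-0.81 and -0.56). The methyltransferase gene Ndufaf7, whose product modifies a core subunit of complex I, was higher at 0.42 ± 0.09. Cox7a2l, which links complexes III and IV in supercomplexes, was higher at 0.34 ± 0.08, with all 3 probe sets called. Ndufaf1, at 0.25, missed the threshold (adjusted p = 0.054) although its lines did not overlap.

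Probe sets of the same gene mostly moved alike. Of the 86 genes, 40 had 1 probe set and 46 had several, up to 6. For 40 of the 46, all probe sets had the same sign, and for 0 genes were probe sets called in opposite directions. Of the 18 called genes with several probe sets, every probe set was called for 13. Of the 160 probe sets, 83 were of the types that can match several transcripts or genes, and many respiratory chain genes have processed pseudogenes that such probe sets could also read. With the 77 plain probe sets alone, 23 genes were called, 8 higher and 15 lower in A_212. That setting left 21 genes unmeasured, 8 of them called, and of the other 23 called genes 22 kept the call. It also changed which genes of the whole array were tested, and calls over the array ran from 3837 to 5757 across the alternatives. The counts of 8 and 15 are therefore not a result about the respiratory chain.

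**Figure D3:**
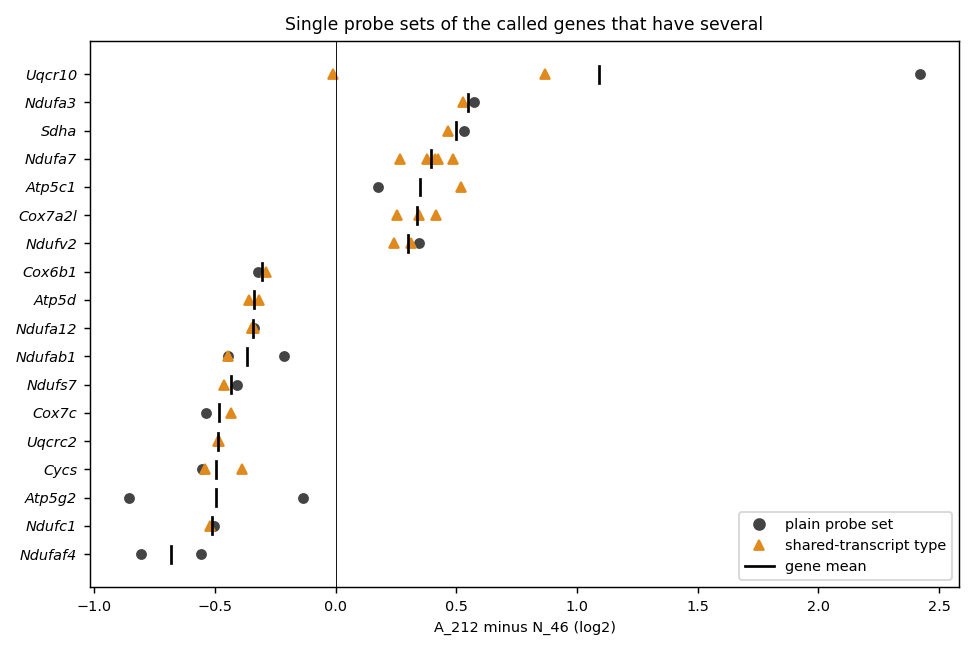
Difference of each probe set, A_212 minus N_46 on a log2 axis, for the 18 called genes that have several. Circles are plain probe sets, triangles are types that can match several transcripts or genes, and the black bar is the gene mean; the probe sets of Uqcr10 run from -0.0096 to 2.42, and those of most other genes lie close together.

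Within the A_212 line, the plates differed for the whole group of genes. A_212 replicate 2 was above its line mean for 80 of the 86 genes (93.0%), against 53.9% of all genes tested. A_212 replicate 3 was above it for 12 genes (14.0%), against 47.2% of all genes, and replicate 1 for 27 (31.4%), against 45.9%. The mean deviation over the 86 genes was 0.08 on replicate 2, -0.05 on replicate 3 and -0.03 on replicate 1. In N_46 the same means lay between -0.01 and 0.01. Leaving out A_212 replicate 2 gave 32 called genes, 15 higher and 17 lower in A_212, and a median difference of -0.08. Leaving out A_212 replicate 3 gave 33, 16 higher and 17 lower, and a median of 0.0027. Over all genes tested, 3903 to 5124 were called with 1 array left out, against 4853 on all 6 arrays. Their median difference ran from -0.08 to -0.04. What sets these plates apart was not tested.

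**Figure D4:**
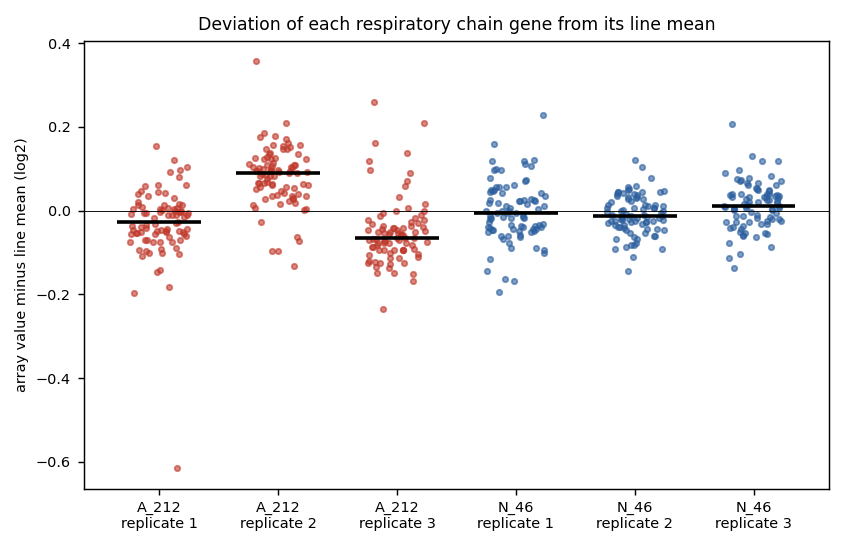
Deviation of each of the 86 genes from the mean of its own line, on each array (log2), A_212 in red and N_46 in blue, with the median as a black bar. A_212 replicate 2 is shifted upward, with a median of 0.09, and A_212 replicate 3 downward, with -0.06, while the N_46 arrays lie at -0.01 to 0.01.

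The chromosome on which a gene lies was not used to choose the genes, and calls were unevenly spread over chromosomes. All 5 respiratory chain genes on chromosome 10 were lower in A_212, namely Ndufs7 (-0.44), Uqcr11 (-0.43), Ndufa12 (-0.34), Atp5d (-0.34) and Atp5b (-0.28). Over all 560 genes tested there, 42.1% were lower and 10.2% higher in A_212, and the median difference of -0.19 was the lowest of the 20 chromosomes. On chromosome 17, 5 of 6 were higher in A_212, namely Ndufv3, Ndufaf7 (0.42), Ndufa7, Cox7a2l and Ndufv2, and Ndufb10 (0.15) did not pass. Of all 596 genes of that chromosome, 28.7% were higher and 10.2% lower. Chromosome 9 had 2 of 6 higher and 0 lower, where 34.9% of all its genes were higher and 7.46% lower. Chromosome 7 held 9 of the genes, with 2 higher and 4 lower in A_212. Of all 958 genes of that chromosome, 10.2% were higher and 31.5% lower, with a median difference of -0.13.

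The nearest genes on the chromosome often differed in the same direction. For each respiratory chain gene, the median difference of the 5 nearest measured genes on each side that are not respiratory chain genes was taken. For the comparison with all other genes, respiratory chain genes were allowed as neighbours. The shares and correlations of the 86 genes given here were the same in both ways at the digits given. It ran from -0.38 next to Uqcr11 to 0.44 next to Ndufaf7. Of the 31 called genes, 26 (83.9%) had the sign of their neighbours' median. Of the 15 higher in A_212, 11 did, and of the 16 lower, 15 did. Among called genes outside the respiratory chain the share was 64.6%, at 46.1% of those higher and 80.8% of those lower. Neighbours' medians were mostly negative, with 29.8% of them positive over all other genes and 37.2% over the respiratory chain genes, so a lower gene shares their sign more often than a higher one. Across the 86 genes, which are not independent and share arrays and neighbours, the difference and the neighbours' median correlated at r = 0.45 (rho = 0.56), and across all other genes at r = 0.18 (rho = 0.25). Ndufa8 lay among neighbours with a median of 0.30, whereas the neighbours of Cox6b2 (-0.06), Uqcr10 (0.02) and Ndufv3 (-0.13) did not share the size of their differences. With each chromosome's median taken out of every array, an alternative chosen after seeing the data, 26 genes were called, 16 higher and 10 lower in A_212. Calls over the whole array moved between alternatives as well. Of all genes, 1986 to 3270 were lower in A_212, against 2586 in the main fit, and 1829 to 2487 higher, against 2267. The counts of 16 and 10 are therefore not a result about the respiratory chain. Atp5b, Atp5d, Ndufa12, Cox6b1, Cox8b and Ndufb1 lost the call, Cox7a1 gained it, and 25 of the 31 kept it. A change in the number of chromosome copies was not tested.

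**Figure D5:**
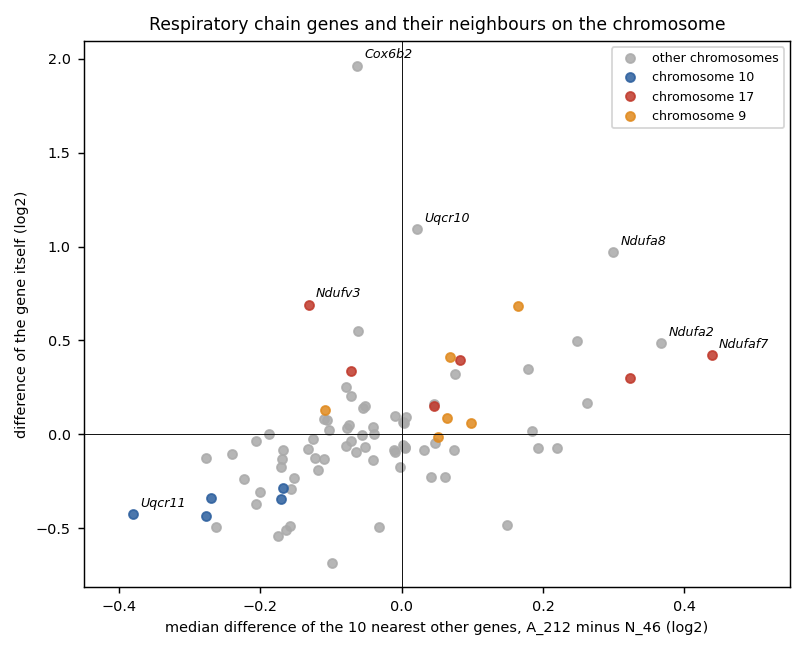
Difference of each respiratory chain gene (vertical axis) against the median difference of its 10 nearest other measured genes (horizontal axis), both A_212 minus N_46 in log2. Genes of chromosome 10 lie at the lower left and most of those of chromosome 17 above 0, while Cox6b2 and Uqcr10 stand high over neighbours near 0.

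Other genes of mitochondria were read from lists. Among regulators of mitochondrial biogenesis and mitochondrial DNA expression, 12 of 17 were lower in A_212, 1 was higher and 4 did not pass, where 20.9% of all genes tested were lower and 18.3% higher. The median difference was -0.30, beside -0.06 over all genes. Tfam, which packages and transcribes mitochondrial DNA, was at -0.35, -0.33 and -0.59 in A_212, against 0.48, 0.44 and 0.33 in N_46. The lines did not overlap, with a difference of -0.84 ± 0.09 (limma adjusted p = 3.1e-05). The coactivator genes Pprc1 (-0.78) and Ppargc1a (-0.54 ± 0.10, adjusted p = 0.0018) were lower as well. Nrf1, a transcription factor of many respiratory chain genes, was called at -0.26 ± 0.07 (adjusted p = 0.013), a call that ended without N_46 replicate 2 (adjusted p = 0.062) or 3 (adjusted p = 0.060). Gabpa, the ETS factor known for the same targets, was at -0.18 and did not pass (adjusted p = 0.10). The gene higher in A_212 was Tfb1m (0.37), a methyltransferase gene of the mitochondrial ribosome, whose call ended without A_212 replicate 1 or 2. The count of genes lower in A_212 was between 9 and 12 in all settings tried. Of 21 genes of mitochondrial protein import, 11 were lower, 2 were higher and 8 did not pass (61.9% called, against 39.2% of all genes), with a median of -0.27. Tomm40, the channel of the outer membrane, differed by -1.19 ± 0.10 and the chaperone gene Timm10 by -0.87 ± 0.09, while Timm8b (0.74) and Timm29 (0.45) were higher.

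Of 33 further assembly factors of the chain, 6 were higher in A_212, 9 lower and 18 did not pass (45.5% called, against 39.2% of all genes), with a median difference of -0.09. Timmdc1, a complex I assembly factor of the inner membrane, had the largest difference of them, at -1.45 ± 0.10 (limma adjusted p = 1.6e-06), followed by Fastkd2 (-0.70), and Surf1 (0.54) and Tmem70 (0.37), which serve complexes IV and V, were higher. Of 17 genes of the citric acid cycle and of the enzymes that feed pyruvate into it, 7 were higher, 7 lower and 3 did not pass (82.4% called), with a median of -0.17. The count of 7 lower depended on single arrays: 1 was left without N_46 replicate 2 or with the chromosome medians taken out, and 3 without A_212 replicate 3 or N_46 replicate 3. Plain probe sets alone gave 4 higher and 4 lower. Over the whole array, the number of genes lower in A_212 also moved, from 1986 to 3270 across the alternatives, against 2586 in the main fit. Ogdh (0.58), of the cycle itself, and Pcx (0.55), the pyruvate carboxylase gene, were higher, and the cycle genes Dlst (-0.34) and Idh2 (-0.31) lower, the call of Idh2 ending without N_46 replicate 2 (adjusted p = 0.059). Of 74 mitochondrial ribosome genes, 8 were higher, 18 lower and 48 did not pass (35.1% called, median -0.08), led by Mrpl24 (-0.50), Mrps14 (-0.49), Mrpl4 (0.52) and Mrps36 (0.40). Of 12 carrier, porin and uncoupling genes, 1 was higher, 3 lower and 8 did not pass (33.3% called, median -0.05), with Slc25a14 at 0.78, Ucp1 at -0.27 and the phosphate carrier gene Slc25a3 at -0.25. The call of Slc25a3 ended without N_46 replicate 2 (limma adjusted p = 0.061) and with chromosome medians taken out (-0.07). Of 8 coenzyme Q genes, 3 were lower and 5 did not pass (37.5% called, median -0.18). All 8 differences were negative, as were those of 7563 of the 12393 genes tested. Coq5 differed by -0.73 and Coq7 by -0.28, and the call of Coq7 ended without A_212 replicate 1 or 3 and without N_46 replicate 2 or 3 (adjusted p from 0.061 to 0.14). Over all alternatives, the largest limma adjusted p was 0.23 for Coq7, 0.13 for Idh2 and 0.051 for Ucp1. Each of these calls therefore also ended in a setting not named here.

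Markers of cell types differed between the same arrays. Of 13 markers of fibroblasts and mesenchyme, 8 were higher in A_212, 1 was lower and 4 did not pass (69.2% called, against 39.2% of all genes), and their mean over the list ran from 0.56 to 0.75 on the A_212 arrays and from -0.73 to -0.52 on the N_46 arrays. Of 14 neuronal markers 2 were higher, 2 lower and 10 did not pass (28.6% called), and of 9 astrocyte markers 2 were higher, 2 lower and 5 did not pass (44.4% called). Postn (5.14), Col3a1 (3.59), Stmn2 (3.09) and Tubb3 (1.13) were higher in A_212, as were Aldoc (0.83) and Glul (0.57), and Slc1a3 (-2.47), Gja1 (-1.30), Col1a1 (-0.55), Map2 (-0.25) and Gap43 (-0.24) were lower. Aldoc was at 0.17 and not called with plain probe sets alone (limma adjusted p = 0.30). The call of Map2 ended without N_46 replicate 2 or 3 (adjusted p = 0.057 and 0.056) and that of Gap43 without A_212 replicate 2 or N_46 replicate 2 (adjusted p = 0.064 and 0.087). The part of these markers in the differences of respiratory chain genes was not tested.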

How the data were processed

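RNA of 6 cultures, 3 plates of A_212 and 3 of N_46, was labelled from 5 µg per sample, per the labels' protocols. Per the submitters' processing notes, the authors used RMA, with its version not given in the sources used here. For all probe sets the deposited log2 values have a median of 0 over the 6 arrays, within 1e-05, and how they were centred is not stated. The number of arrays limits the precision.

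Of 22690 probe sets, 20380 were named for 1 gene and 691 for several, which were left out. Gene means (12393 genes, 4956 with several probe sets) and single probe sets were tested with limma 3.58.1 in R 4.3.3 (lmFit and eBayes, two-sided, Benjamini-Hochberg, 0.05). Differences are A_212 minus N_46. Complexes were assigned by symbol, and the chromosome and neighbours of each gene came from a RefSeq table of GRCm38.p6. The members and lists were chosen with earlier results of these data known. Named genes were the 3 with the largest called difference each way per complex, a fixed set of catalytic subunits, isoforms and regulators, and up to 2 each way per further list. Others in the text were named after their values were seen. Alternatives were a common median or a common 75th percentile for all arrays, weighted arrays, replicate number as a block, each array left out, plain probe sets, robust eBayes and, added later, chromosome medians taken out and the median over probe sets. Alternatives that need a level (the brightest probe set, a filter on dim ones) could not be run on centred values. The fit was tested on simulated data. Same-numbered plates did not pair (correlations of deviations -0.03, -0.01 and 0.09 for replicates 1, 2 and 3). Python 3.11.15, pandas 2.3.3 and matplotlib 3.10.9 were used.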

Additional observations from a re-analysis of the deposited data

How the results depend on the processing

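Of 262 summary values over 14 alternatives, 256 stayed within a set bound of the value reported. For counts the bound was 1.5 times. For medians and contrasts it was the SD of the per-array value within a line, the larger of the lines, and not an SD of the difference itself. Of 1130 values of single genes, 1076 kept their sign and their side of the threshold, 32 lost and 7 gained the call, and 15 changed sign. Plain probe sets alone gave 8 respiratory chain genes higher in A_212 and 23 probe sets called, with fewer probe sets tested. With chromosome medians taken out, 10 genes were lower in A_212, the median of complex IV was -0.032, Cox7a1 minus Cox7a2 differed by 0.31, and Cox6a1 (0.0039), Sdhd (-0.018) and Atp5a1 (-0.065) changed sign, and other causes were not tested. Leaving out 1 array at a time gave 29 to 33 called genes, a median of complex III from -0.12 to -0.0026 (-0.0026 without A_212 replicate 3), and differences of -0.058 to 0.061 for Sdhb, -0.12 to 0.0039 for Uqcrfs1, -0.033 to 0.016 for Cox5a and -0.023 to 0.061 for Cox5b. Cox5a was also above 0 with a common array median (0.018) or 75th percentile (0.0051), with array weights (0.0087) and with plain probe sets (0.019), where Cox5b was at -0.037. None of the genes that changed sign was called in any of these settings. The replicate block, on numbers that do not pair the plates, gave 33 called genes, 15 higher and 18 lower, with 54 probe sets called. Weighted arrays gave the most called genes, 36, with all 31 kept and Cox4i2, Ndufb10, Ndufc2, Uqcrb and Uqcrq added. Calls over the whole array moved too, from 3837 to 5757 genes across the alternatives, against 4853 in the main fit. With 1 array left out they ran from 3903 to 5124. Shifts in the number of called respiratory chain genes between settings are therefore not a result about these genes. The scalings to a common median or 75th percentile gave 32 called genes, all 31 kept, and moved the median of all genes from -0.06 to between -0.03 and -0.04. The 3 arrays per line limit what small differences can be called.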
